A study of Mus musculus with 8 samples.

Results

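Silica changed many genes in opposite directions in the 2 genotypes of this study, and the genes described here are those it moved the same way in both. They were chosen on all 8 arrays, each of which set lung leukocyte RNA (Cy5) against a universal mouse reference RNA (Cy3). A gene counted as shared when its 2 silica arrays lay wholly above its 2 saline arrays in RagKO mice and in WT mice, or wholly below them in both. Of 11597 genes measured, 3109 met that rule (26.8%), 1448 upward (12.5%) and 1661 downward (14.3%). Of the shared genes, 1199 (10.3% of the genes measured) also passed an additive fit of silica against saline with genotype as a covariate (limma, Benjamini-Hochberg adjusted p below 0.05). These were 684 genes higher after silica (5.9%) and 515 lower (4.44%). The fit called 1206 genes in all (10.4%), 688 higher (5.93%) and 518 lower (4.47%), so that 7 called genes were not shared. Both criteria use the silica contrast, so the members' silica differences and adjusted p-values describe how they were chosen and are no independent evidence of a response.

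RagKO silica mice were Rag1-/- animals that received 1 mg of crystalline silica in 25 µl of saline through the nose once weekly over 4 weeks, and RagKO saline mice were Rag1-/- animals given 25 µl of saline alone. WT silica and WT saline mice were C57Bl/6 animals treated in the same way, and the labels name no strain for the Rag1-/- mice. To remove natural killer (NK) cells, both RagKO groups had anti-NK1.1 antibody injected intraperitoneally (300 µg each time), starting before silica or saline and continuing weekly, so the effects of the missing gene and of the antibody cannot be told apart. All mice were 6 to 8 weeks old and were anaesthetised with ketamine for instillation, and their lungs were digested with collagenase before leukocytes were taken from a Percoll gradient. Each group had 2 arrays, which the labels call biological replicates without the number of mice behind each. A p-value for silica within a genotype, or for the difference between the genotypes, reflects array-to-array spread, which may be technical. The additive fit has no term for a silica effect that differs between the genotypes, so its p-values also reflect that difference.

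Crystalline silica that reaches the lung is taken up by macrophages, in which it damages lysosomes and activates the inflammasome. The cells then release cytokines and chemokines that recruit neutrophils and monocytes, and repeated exposure leads to the collagen deposition of silicosis. Rag1 is needed to assemble antigen receptor genes, so mice without it have no mature T or B cells. All values below are log2 ratios to the reference RNA, or differences between such ratios, where a difference of 1 is a 2-fold change; the log base of the deposited ratios was inferred from the values.

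Several measures of the arrays themselves moved with silica or stood apart, and they are given first because every result below comes from the same arrays. Across genes, the arrays of a group had Pearson correlations of 0.979 to 0.99, while the least alike pair of arrays reached 0.708. A probe for 28S ribosomal RNA (Rn28s1), whose RNA carries no poly(A) tail, read 0.86 and 0.59 on the RagKO silica arrays, against 2.43 and 2.08 on the RagKO saline arrays, and 2.17 and 2.45 on the WT silica arrays, against 3.67 and 3.71 on the WT saline arrays. It was thus lower after silica on every array of each genotype, and its part in the results was not tested. The sex-linked transcripts set the RagKO silica arrays apart from each other: the Y-linked Eif2s3y read 2.42 and -2.22 there, against 2.90 and 2.6 in RagKO saline, and 0.34 and 1.05 in WT silica, against 2.32 and 2.27 in WT saline. Xist, the transcript of the inactive X chromosome, read -1.87 and 1.87 in RagKO silica, against -1.59 and -1.72 in RagKO saline, and 0.54 and 0.23 in WT silica, against -0.04 and -0.18 in WT saline. The RagKO silica replicates thus had opposite readings, and WT silica was lower in Eif2s3y than WT saline, so the counts of members called are also given without these RagKO silica arrays for the lists in which they move the most.

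The leukocyte label was checked with pan-leukocyte genes. Ptprc, which encodes the leukocyte antigen CD45, read 1.70 and 1.71 in RagKO silica, against 1.60 and 1.5 in RagKO saline, and 1.62 and 1.51 in WT silica, against 2.04 and 1.98 in WT saline, above the reference on every array. Of 6 such genes (Ptprc, Cd52, Cd53, Coro1a, Itgb2 and Laptm5), only Cd52 passed the additive fit, with a difference of -0.70 (SE 0.17, limma adjusted p = 0.0415), a call that was lost without any 1 of 7 of the 8 arrays. The preparations also held structural lung RNA, since Sftpc, the surfactant gene of alveolar type 2 cells, read between 5.12 and 5.13 in RagKO silica and between 6.40 and 6.74 in WT saline. These groups differ in both genotype and exposure. Sftpc itself passed the additive fit, lower after silica (difference -0.65, limma adjusted p = 0.0271), a call kept in 1 of the 8 fits without 1 array. In such mixed RNA, fewer cells of a type and less RNA per cell cannot be told apart.

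**Figure D1:**
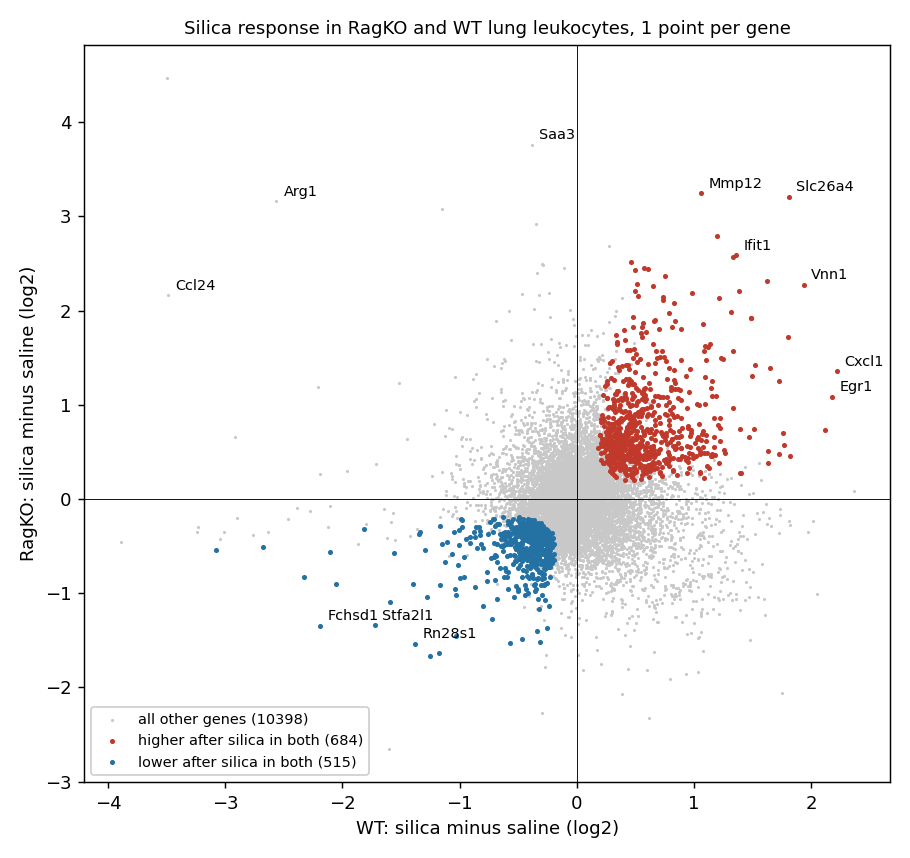
Silica minus saline difference of each of 11597 genes (log2) in RagKO leukocytes (vertical axis) and in WT leukocytes (horizontal axis), with the 684 shared rises in red, the 515 shared falls in blue and all other genes in grey. The shared genes fill the upper right and lower left by construction, while Arg1, Ccl24 and Saa3 lie in the upper left, higher after silica in RagKO and lower in WT.

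Over all genes, the 2 genotypes had little of their silica response in common. The RagKO and WT differences, which come from separate arrays, correlated across genes with r = 0.0703 (Spearman 0.105), and 56% of genes had the same sign in both. In the genotypes' own contrasts, silica changed 3795 genes in RagKO (32.7%), 1950 higher (16.8%) and 1845 lower (15.9%), and 2283 in WT (19.7%), 1331 higher (11.5%) and 952 lower (8.21%). Of the 1012 genes called in both, 539 (53.3%) moved the same way, 349 higher and 190 lower, while 473 moved in opposite ways. Of those 473 genes, 332 were lower in RagKO and higher in WT, and 141 were higher in RagKO and lower in WT. Shared changes were mostly small: the median additive difference was 0.63 among the 684 rises and -0.44 among the 515 falls, and 35 rises and 9 falls reached a difference of at least 1 in both genotypes.

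The size of the shared response was then compared between the genotypes, with the RagKO effect minus the WT effect tested over all genes, where 2697 were called (23.3%). Among the 684 shared rises the difference was called for 137, of which 105 were larger in RagKO and 32 larger in WT. Among the 515 shared falls it was called for 39, of which 20 were larger in RagKO and 19 in WT. For the remaining genes the sizes could not be told apart at 2 arrays per group, which does not show that they were equal. The additive fit takes a difference between the genotypes as spread, so passing it selects against such genes. The counts among shared genes are therefore not comparable with the 23.3% of all genes.

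The additive calls depended on single arrays. Without RagKO silica replicate 1 or 2 the fit called 349 or 566 genes, without RagKO saline replicate 1 or 2 it called 344 or 421, without WT silica replicate 1 or 2 it called 453 or 743, and without WT saline replicate 1 or 2 it called 413 or 287, in place of 1206. All 1199 shared calls kept their direction in each of these fits, which the rule for shared genes fixed in advance. A core of 211 genes (1.82% of those measured), 155 higher and 56 lower, stayed past the threshold whichever array was left out, and most genes described below belong to that core. In the core, the difference between the genotypes was called for 17 rises and 4 falls. Passing the additive fits selects against genes whose silica effect differs between the genotypes, so these counts do not show that core genes responded alike.

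**Figure D2:**
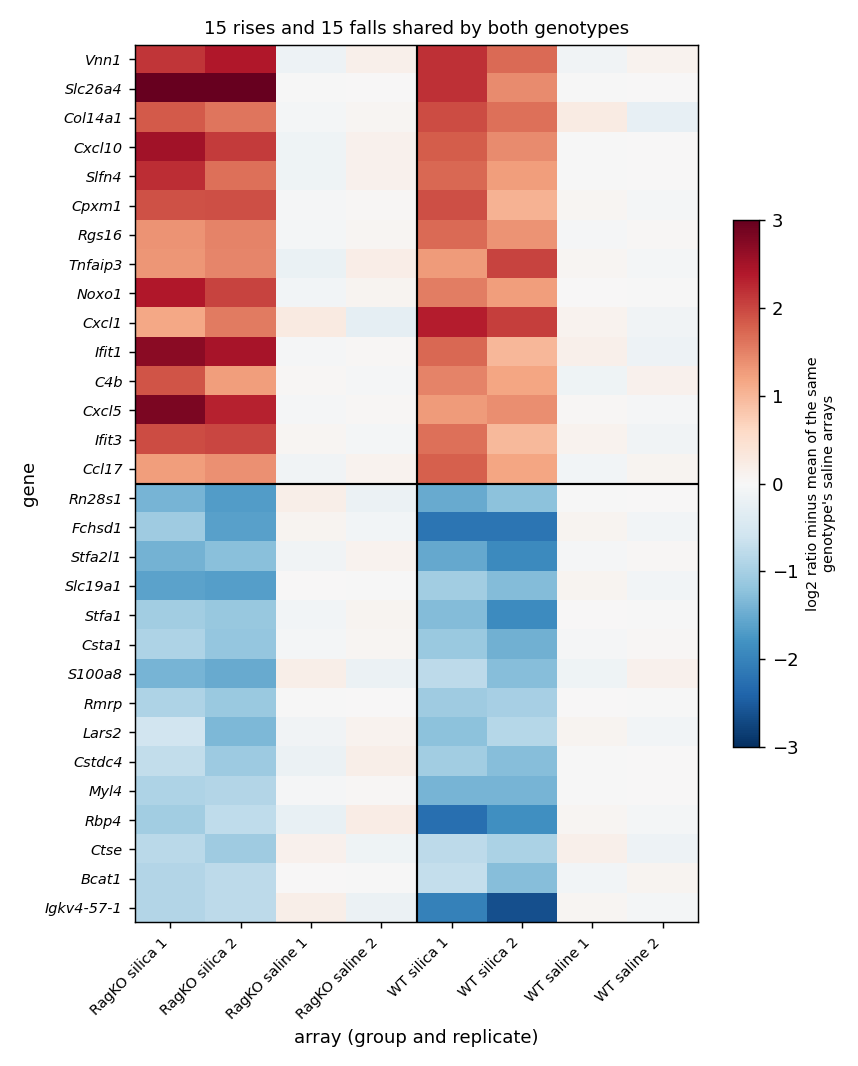
The 15 shared rises (top) and 15 shared falls (bottom) with the largest smaller-of-both-genotypes difference, 1 row per gene and 1 column per array. Colour gives the log2 ratio minus the mean of the same genotype's saline arrays and ends at 3, which Slc26a4 exceeds in RagKO. Rises are red on all 4 silica arrays and falls are blue on all 4.

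The strongest shared rise by the weaker genotype was that of Vnn1, which encodes the pantetheinase vanin 1, a membrane enzyme that releases cysteamine. Vnn1 read 3.05 and 3.32 in RagKO silica, against 0.76 and 1.06 in RagKO saline, and 1.84 and 1.35 in WT silica, against -0.44 and -0.25 in WT saline. Silica and saline arrays did not overlap in either genotype, and the rise was 4.84-fold in RagKO and 3.83-fold in WT (additive difference 2.11, SE 0.15, limma adjusted p = 0.00157). Slc26a4, the gene of the anion exchanger pendrin, showed the largest additive difference of all shared genes, 2.51 (SE 0.29), with 5.13 and 5.01 in RagKO silica, against 1.86 and 1.86 in RagKO saline, and 5.19 and 4.41 in WT silica, against 2.99 and 3 in WT saline. It was high on all 4 silica arrays, but its rise was larger in RagKO, 9.24-fold, than in WT, 3.5-fold (difference between the genotypes 1.40, limma adjusted p = 0.00636). Noxo1, an organizer subunit of the superoxide-producing NADPH oxidase Nox1, rose by 2.21 in RagKO and 1.39 in WT. That response, too, was larger in RagKO (difference 0.83, limma adjusted p = 0.0167).

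For other leading rises no difference between the genotypes was called. Rgs16, a brake on G protein signalling, read 1.14 and 1.28 in RagKO silica, against -0.28 and -0.15 in RagKO saline, and 1.79 and 1.43 in WT silica, against 0.07 and 0.12 in WT saline. All 4 silica arrays lay above all 4 saline arrays, with a difference between the genotypes of -0.09 (limma adjusted p = 0.766). Slfn4, a Schlafen family gene of myeloid cells, rose by 1.93 and 1.49 in RagKO and WT, and Cpxm1, a carboxypeptidase family gene, by 1.92 and 1.48. The leucine-rich repeat gene Lgi2 (1.18 and 1.15) and the fibronectin domain gene Fndc1 (1.01 and 1.09) followed, both chosen after their values were seen.

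**Figure D3:**
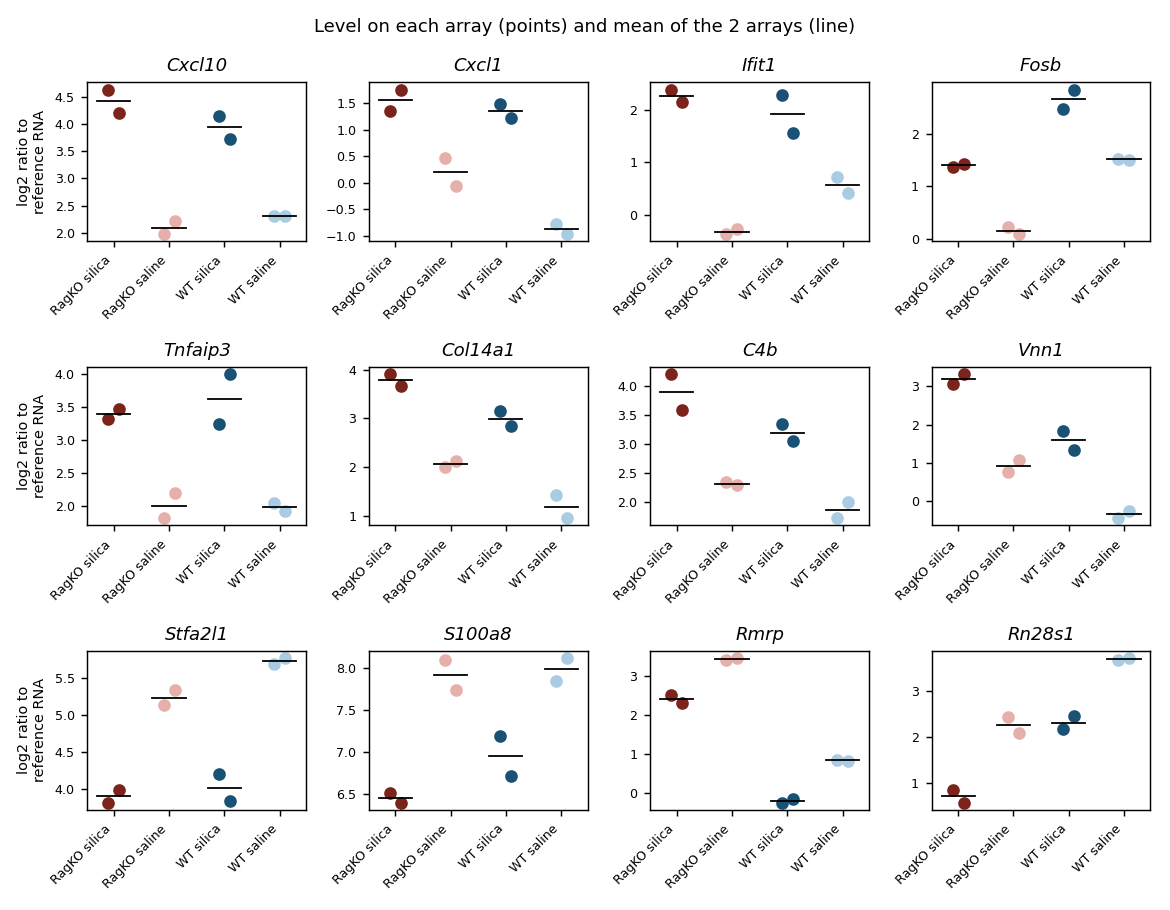
Level of 12 shared genes on each array (points; log2 ratio to the reference RNA) and the mean of each group's 2 arrays (lines), with RagKO silica and RagKO saline left of WT silica and WT saline. In each panel the silica points lie wholly above (Cxcl10 to Vnn1) or wholly below (Stfa2l1 to Rn28s1) the saline points of the same genotype.

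Of 12 measured CXC chemokine ligands, several of which attract neutrophils, 8 rose and 1 fell in the additive fit, against 5.93% and 4.47% of all genes, with a median difference of 0.85 beside -0.02 over all genes. Cxcl1, a ligand of the neutrophil receptor CXCR2, read 1.36 and 1.76 in RagKO silica, against 0.46 and -0.07 in RagKO saline, and 1.49 and 1.22 in WT silica, against -0.77 and -0.96 in WT saline. The silica arrays of both genotypes reached a similar level, while the WT saline arrays started lower, so the rise was larger in WT, 4.65-fold, than in RagKO, 2.56-fold (difference -0.86, limma adjusted p = 0.0451). Cxcl5, another CXCR2 ligand, went the other way, with a rise of 2.57 in RagKO and 1.33 in WT (difference 1.24, limma adjusted p = 0.00299). Cxcl3 rose by 1.25 in RagKO and 1.72 in WT, and Cxcl2 by 1.34 and 0.66, a call that was lost without RagKO saline replicate 2 (limma adjusted p = 0.0508).

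Cxcl10, an interferon-induced ligand of CXCR3 on T and NK cells, read 4.63 and 4.20 in RagKO silica, against 1.98 and 2.22 in RagKO saline, and 4.14 and 3.73 in WT silica, against 2.31 and 2.32 in WT saline. It rose 4.98-fold in RagKO and 3.07-fold in WT, with no overlap between silica and saline arrays of either genotype. Cxcl14, Cxcl16 and Cxcl12 also rose, by 1.08, 1.06 and 0.57 in RagKO and by 0.77, 0.47 and 0.25 in WT; of these only Cxcl14 was in the core. Ppbp, a platelet chemokine gene, fell by 0.92 in RagKO and by 0.52 in WT. Over the 8 fits that leave out 1 array, 5 to 8 CXC ligands stayed called upward, with 6 of them when RagKO silica replicate 1 or 2 was left out.

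The promoters of Cxcl1, Cxcl3 and Cxcl2, which lie on the same chromosome, are shown because these members rose together and each holds a kappaB motif, bound by NF-kB and searched as GGGA, any base and TTTCC, within the 250 bases before the start site (capitals; RefSeq, build GRCm38.p6, strand of the gene, 5′ to 3′). They are chr5:90890995-90891244 (plus strand) for Cxcl1, chr5:90785851-90786100 (plus) for Cxcl3 and chr5:90903649-90903898 (plus) for Cxcl2.
Cxcl1: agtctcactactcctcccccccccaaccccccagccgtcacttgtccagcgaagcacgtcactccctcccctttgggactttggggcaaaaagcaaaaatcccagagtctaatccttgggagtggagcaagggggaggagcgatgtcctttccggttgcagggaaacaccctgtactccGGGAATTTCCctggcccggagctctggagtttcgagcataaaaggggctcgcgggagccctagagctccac
Cxcl3: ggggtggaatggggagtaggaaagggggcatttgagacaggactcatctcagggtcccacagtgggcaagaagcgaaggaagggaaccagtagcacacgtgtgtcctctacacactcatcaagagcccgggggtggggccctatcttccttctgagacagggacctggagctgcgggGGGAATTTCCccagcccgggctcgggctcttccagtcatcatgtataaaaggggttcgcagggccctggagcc
Cxcl2: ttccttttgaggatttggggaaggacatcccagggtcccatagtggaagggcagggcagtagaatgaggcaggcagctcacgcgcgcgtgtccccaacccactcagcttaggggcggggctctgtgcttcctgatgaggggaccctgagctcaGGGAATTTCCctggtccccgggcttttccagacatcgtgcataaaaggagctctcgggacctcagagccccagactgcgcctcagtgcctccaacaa
The motif began at -71 in Cxcl1, -73 in Cxcl3 and -97 in Cxcl2, counted from the start site. Searched on both strands, the motif occurred in 34 of 9347 promoters of measured genes (0.364%) and in 3 of 6 called CXC ligands with a promoter in the table, but in only 1 of 7 called NF-kB targets (14.3%), Nfkbia. Cxcl1, Cxcl2 and Cxcl3 lie close together and hold the same matched letters, so they may not count as independent matches. A match of letters is a description and not a bound site.

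Among 16 other chemokine ligands 6 rose and none fell, by limma (2 had own-contrast falls in WT and 1 in RagKO). Ccl2, which draws monocytes through CCR2, read 1.54 and 1.92 in RagKO silica, against -0.30 and -0.51 in RagKO saline, and -0.42 and -1.24 in WT silica, against -2.06 and -2.03 in WT saline, a rise of 4.39-fold in RagKO and 2.32-fold in WT. Ccl17, a ligand of CCR4 on Th2 and regulatory T cells, rose by 1.31 in RagKO and 1.49 in WT, with its 4 silica arrays between 3.53 and 4.61 and its 4 saline arrays between 2.25 and 3.36. Ccl3 (0.62 and 1.10) and the membrane-bound Cx3cl1 (0.56 and 0.63) were also in the core. The monocyte chemokine gene Ccl7 rose by 2.79 in RagKO and 1.2 in WT, and its call was lost without RagKO saline replicate 1 or 2 or RagKO silica replicate 1. None of 10 chemokine receptor genes passed the additive fit, with 3 own-contrast rises and no fall in RagKO and 1 rise and 2 falls in WT.

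Neutrophil markers did not rise with these ligands. Of 14 measured, 1 rose (Lcn2) and 5 fell, and the sum of the list's ratios to the reference was 429 to 471 in RagKO silica, against 735 to 771 in RagKO saline, and 604 to 609 in WT silica, against 843 to 972 in WT saline. The summed level was lower on every silica array, in both genotypes, but such a sum weighs most the members with high ratios, such as S100a8. Gene by gene, 5 of the 14 had a positive additive difference, and the median difference was -0.47 in RagKO and -0.33 in WT. Lcn2, the iron-scavenging lipocalin 2 made by neutrophils, macrophages and epithelium, rose by 1.63 in RagKO and 1.09 in WT (SE of the additive difference 0.16, limma adjusted p = 0.00523).

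Interferon-stimulated genes formed the list with the highest share of shared rises. Of 23 measured, 18 rose and none fell in the additive fit, with a median difference of 1.81 in RagKO and 0.58 in WT, beside -0.03 and -0.01 over all genes. Ifit1, an RNA-binding antiviral protein gene, read 2.38 and 2.15 in RagKO silica, against -0.36 and -0.27 in RagKO saline, and 2.28 and 1.56 in WT silica, against 0.71 and 0.41 in WT saline. All silica arrays lay above all saline arrays, and the rise of 6.01-fold in RagKO was larger than that of 2.56-fold in WT (difference 1.23, limma adjusted p = 0.0139). The genotype difference was called, larger in RagKO, for 17 of the 23 genes, against 11% of all genes. Rsad2, which encodes the antiviral enzyme viperin, did not show it, with rises of 0.88 in RagKO and 0.86 in WT (difference 0.03, SE 0.24).

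Few of the interferon calls were held by every set of 7 arrays. Ifit1, Ifit3 (1.98 and 1.31), Oasl2 (1.81 and 0.89) and Rsad2 were in the core, and between 4 and 19 genes of the list were called when 1 array was left out, 9 without RagKO silica replicate 1 and 7 without replicate 2. Oas1a, an activator of RNase L, rose by 1.83 and 0.81 and lost its call without RagKO saline replicate 1. The transcription factor gene Stat2 rose by 1.54 and 0.50 and kept its call in 1 of the 8 fits. Isg15 and Zbp1, which did not pass, had RagKO differences of 1.73 and 2.17 and WT differences of 0 and -0.33. Family members such as the Oas and Ifit genes share sequence, so single values are uncertain.

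The promoters of Ifit1, Ifit3 and Cxcl10 are shown because these core genes rose in both genotypes and hold the interferon-stimulated response element, the site of the STAT and IRF complex ISGF3, searched on both strands as GAAA, any 2 bases and GAAA, in capitals (RefSeq, GRCm38.p6, strand of the gene, 5′ to 3′). They are chr19:34640639-34640888 (plus) for Ifit1, chr19:34583279-34583528 (plus) for Ifit3 and chr5:92348890-92349139 (minus) for Cxcl10.
Ifit1: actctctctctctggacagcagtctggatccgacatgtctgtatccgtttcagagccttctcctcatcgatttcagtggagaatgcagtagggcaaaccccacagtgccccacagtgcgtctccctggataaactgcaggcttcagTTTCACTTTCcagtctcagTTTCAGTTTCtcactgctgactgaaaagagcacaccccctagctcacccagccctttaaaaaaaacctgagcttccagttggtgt
Ifit3: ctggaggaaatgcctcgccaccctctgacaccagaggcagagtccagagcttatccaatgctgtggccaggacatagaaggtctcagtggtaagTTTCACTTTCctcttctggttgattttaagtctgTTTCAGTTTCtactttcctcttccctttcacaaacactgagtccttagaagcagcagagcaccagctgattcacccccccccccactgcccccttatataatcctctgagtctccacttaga
Cxcl10: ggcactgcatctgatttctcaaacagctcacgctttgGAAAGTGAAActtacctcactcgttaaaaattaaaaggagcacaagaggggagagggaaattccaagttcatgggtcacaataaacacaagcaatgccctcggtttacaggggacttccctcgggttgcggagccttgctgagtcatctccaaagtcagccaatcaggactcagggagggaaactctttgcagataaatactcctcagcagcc
The element began at -104 and -85 in Ifit1, at -156 and -122 in Ifit3 and at -213 in Cxcl10. It occurred in 253 of 9347 promoters (2.71%) and in 5 of 13 called interferon-stimulated genes with a promoter (38.5%), namely Ifit1, Ifit3, Oas1a, Rsad2 and Stat2. The list was made of genes known to respond to interferon, and its uncalled members were not compared, so this share does not measure a response to silica. Ifit1 and Ifit3 lie on the same chromosome and hold the same matched letters, so they may not count as independent matches. Here too a match is not a bound site.

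Immediate early genes, which switch on within minutes of a stimulus, also rose in both genotypes. Of 22 measured, 16 rose and none fell, with a median difference of 0.91 in RagKO and 0.78 in WT. Fosb, which encodes a subunit of the AP-1 factor, read 1.37 and 1.44 in RagKO silica, against 0.21 and 0.09 in RagKO saline, and 2.48 and 2.86 in WT silica, against 1.52 and 1.51 in WT saline. The WT levels were higher throughout, and the WT saline arrays lay above the RagKO silica arrays, but the step with silica was 1.25 in RagKO and 1.15 in WT (difference 0.10, SE 0.19). Fos (1.30 and 1.09), Jun (0.86 and 1.22), the nuclear receptor gene Nr4a1 (1.64 and 1.13), Ier5 (1.47 and 1.10), Klf4 (1.30 and 0.93) and Klf6 (0.57 and 0.82) were also in the core. Egr1, a zinc finger factor of the same class, rose by 1.09 in RagKO and by 2.18 in WT, a larger step in WT (difference -1.09, limma adjusted p = 0.0193), whereas Egr2 rose more in RagKO (1.83 and 0.48, difference 1.35, limma adjusted p = 0.000313) and was not in the core. Without 1 array 10 to 15 of the list were called, with 10 without RagKO silica replicate 1, RagKO saline replicate 1 or WT saline replicate 2.

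Feedback inhibitors of inflammation rose beside their targets. Tnfaip3, the gene of A20, which shuts off NF-kB signalling, read 3.32 and 3.47 in RagKO silica, against 1.81 and 2.19 in RagKO saline, and 3.25 and 4.01 in WT silica, against 2.04 and 1.92 in WT saline. Every silica array lay above every saline array, a rise of 2.63-fold in RagKO and 3.14-fold in WT. Zfp36, whose product tristetraprolin destabilises cytokine mRNA, rose by 0.96 and 0.94, and Socs3, an inhibitor of cytokine receptor signalling, by 1.57 and 1.09. Tnf itself rose by 1.09 in RagKO and 0.67 in WT, the adhesion molecule gene Icam1 by 0.87 and 0.70, and the mitochondrial superoxide dismutase gene Sod2 by 0.99 and 0.63. Of 17 NF-kB targets and feedback genes, 8 rose and none fell, with 4 or 5 called when any 1 array was left out; own-contrast rises numbered 14 in RagKO and 6 in WT.

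Of 15 heat shock genes 8 rose and none fell, led by the co-chaperone genes Bag3 (1.13 in RagKO and 0.96 in WT) and Dnajb1 (0.78 and 1.2) and the small heat shock protein gene Hspb1 (0.86 and 1.17). Without 1 array 3 to 7 were called, with 5 without RagKO silica replicate 1, 7 without replicate 2 and 3 without WT saline replicate 2. The genotype difference was called, larger in WT, for 5 of the 15, against 12.3% of all genes, although none of these is among the genes named here. The inverted pair of the heat shock element, searched on both strands as GAA, any 2 bases and TTC, occurred in 456 of 9347 promoters (4.88%) and in 3 of 6 of the called genes with a promoter, Hspa1a, Hspa1b and Hspb1, where Hspa1a and Hspa1b are near-identical copies and lie outside the core. Txnrd1, thioredoxin reductase 1, rose by 1.39 and 0.79, while 2 of 21 oxidative stress and xenobiotic genes rose and none fell. Of 20 endoplasmic reticulum stress genes 1 rose and 2 fell, and 12 had opposite signs in the genotypes. Of 16 glucocorticoid-responsive genes 7 rose and 1 fell (4 rose and none fell without either RagKO silica array, and 3 to 7 rose without any other array), with the kinase gene Sgk1 at 1.86 and 1.08 (difference 0.78, limma adjusted p = 0.0208). The clock regulator Bhlhe40 rose by 1.61 and 1.12, and the angiogenic factor gene Vegfa by 1.5 and 0.68 (difference 0.82, limma adjusted p = 0.0154).

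**Figure D4:**
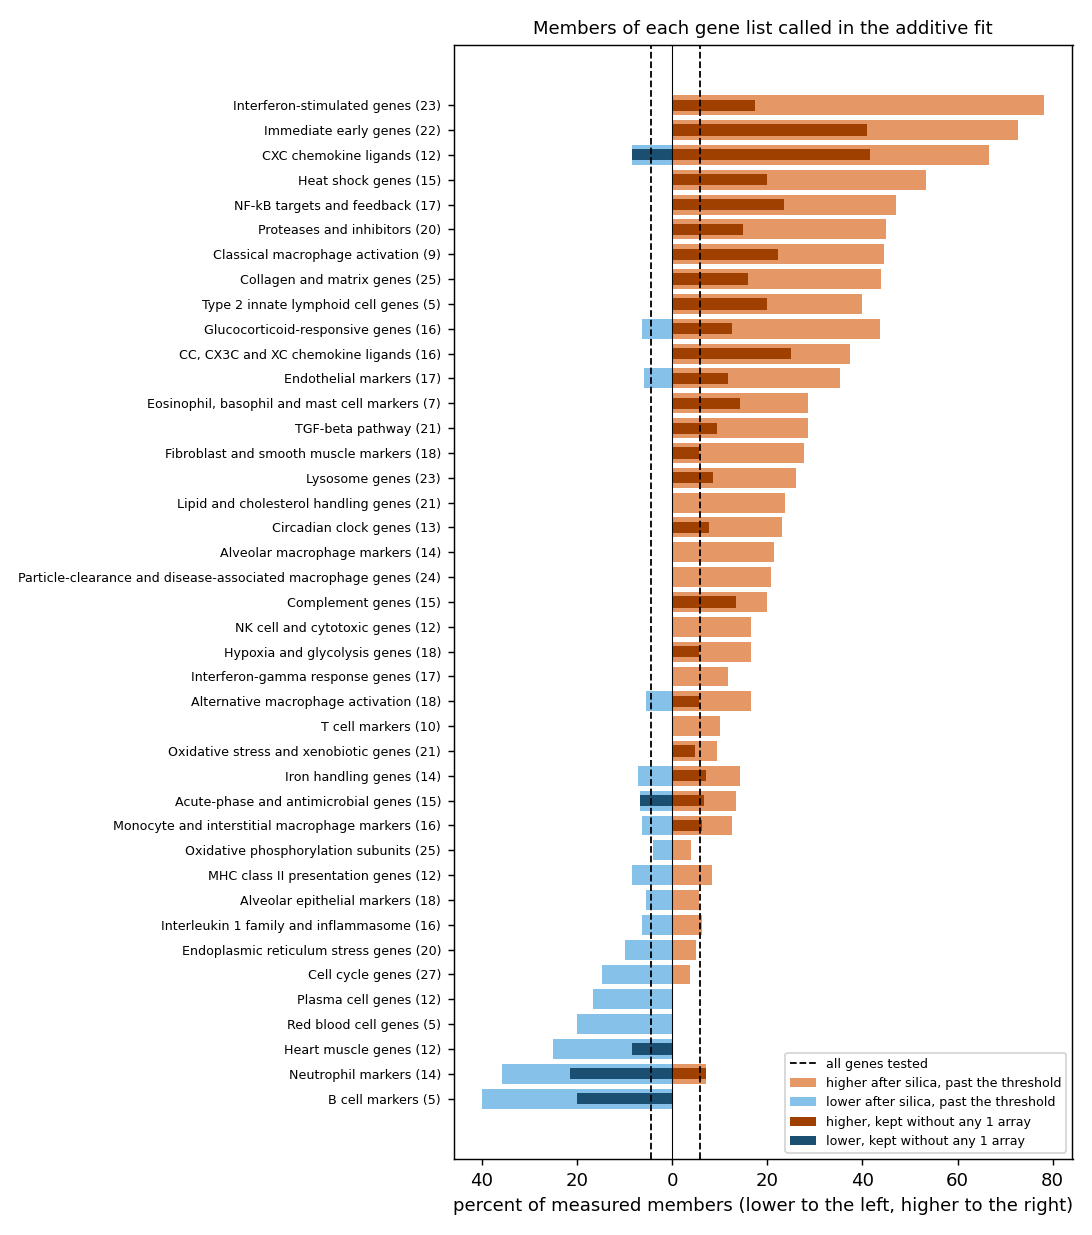
Percent of the measured members of each gene list (number measured in brackets) that passed the additive fit, higher after silica to the right and lower to the left, with the share that stayed called without any 1 array in dark bars and the shares over all genes as dashed lines. Interferon-stimulated (18 of 23), immediate early (16 of 22), CXC chemokine (8 of 12) and heat shock genes (8 of 15) have the largest shares to the right, and 6 lists with no call are left out.

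Genes of the extracellular matrix rose in both genotypes. Of 25 collagen and matrix genes, 11 rose and none fell, with a median difference of 0.40 in RagKO and 0.55 in WT. Col14a1, which encodes a collagen that binds to the surface of fibrils, read 3.91 and 3.66 in RagKO silica, against 2.00 and 2.13 in RagKO saline, and 3.15 and 2.84 in WT silica, against 1.43 and 0.95 in WT saline. The rise was 3.3-fold in RagKO and 3.49-fold in WT, with no overlap (additive difference 1.76, SE 0.13, limma adjusted p = 0.00157). Col1a2, a chain of type I collagen, rose by 1.49 and 1.25, the elastin gene Eln by 1.04 and 0.58, and Thbs1, an activator of latent TGF-beta, by 1.00 and 0.76. Col1a1 (0.84 and 0.79) and Col3a1 (1.89 and 0.65) also passed but kept their calls in 3 and 4 of the 8 fits without 1 array; Col3a1 rose more in RagKO (difference 1.23, limma adjusted p = 0.00175). Without 1 array 5 to 10 genes of the list were called, with 5 without RagKO silica replicate 1, RagKO saline replicate 1 or WT saline replicate 2.

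By summed ratios, markers of structural cells moved differently from the collagens in RagKO. The fibroblast and collagen lists are not separate sets, since both hold Col1a2. The summed ratio of 18 fibroblast and smooth muscle markers was 125 to 129 in RagKO silica, against 172 to 177 in RagKO saline, and 81.4 to 93.6 in WT silica, against 47.2 to 48.7 in WT saline. It was thus lower after silica in RagKO and higher in WT, while the summed ratio of the collagen and matrix list was 37 to 43.1 in RagKO silica, against 24.5 to 25.3 in RagKO saline, and 24 to 27.6 in WT silica, against 14.4 in WT saline. Of the fibroblast markers 5 rose in the additive fit, 4 of them shared, and none fell. In the genotypes' own contrasts 6 rose and 8 fell in RagKO, while 12 rose and none fell in WT. Alveolar epithelial markers summed to 477 to 510 in RagKO silica, against 596 to 622 in RagKO saline, and 600 to 619 in WT silica, against 378 to 439 in WT saline, and 15 of 18 had opposite signs. Their part in the matrix result was not tested.

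Matrix-degrading and clotting-related genes were among the rises. Of 20 proteases and inhibitors 9 rose and none fell, with Mmp2, a gelatinase gene, at 1.17 in RagKO and 0.84 in WT, the metalloproteinase inhibitor gene Timp2 at 1.36 and 0.83, and the urokinase receptor gene Plaur at 1.51 and 0.71. Without 1 array 4 to 9 were called, with 6 without RagKO silica replicate 1, 7 without replicate 2 and 4 without RagKO saline replicate 1. Timp2 and Plaur rose more in RagKO (differences 0.54 and 0.80, limma adjusted p = 0.0332 and 0.0141). Mmp12, macrophage elastase, read 3.95 and 4.07 in RagKO silica, against 0.93 and 0.59 in RagKO saline, and 2.28 and 1.71 in WT silica, against 0.77 and 1.10 in WT saline. It rose 9.51-fold in RagKO and 2.08-fold in WT (difference 2.19, limma adjusted p = 0.00057), and its additive call was lost without either RagKO silica or either RagKO saline array. In the TGF-beta pathway 6 of 21 genes rose and none fell (2 without RagKO silica replicate 1, 3 without replicate 2 and 2 to 4 without any other array), among them Tgfb3 (0.58 and 0.77) and the signal mediator Smad4 (0.56 and 0.45), while Tgfb1 did not pass (0.34 and 0.04).

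Complement and endothelial genes added smaller groups. Of 15 complement genes 3 rose, C4b (1.57 in RagKO and 1.33 in WT), C1ra (1.00 and 1.04) and C1s1 (0.56 and 0.57), which encode a substrate and both proteases of the classical pathway. C4b has a near-identical neighbour, so its value may include that copy, and C1s1 kept its call in 2 of the 8 fits without 1 array. Of 17 endothelial markers 6 rose and 1 fell (3 and 0 without RagKO silica replicate 1, 5 and 1 without replicate 2, and 2 to 4 rises without any other array), with Plvap, a component of endothelial fenestrae, at 1.27 and 0.83 and the TGF-beta co-receptor gene Eng at 0.45 and 0.66. In the genotypes' own contrasts 4 endothelial markers rose and 6 fell in RagKO, while 9 rose and 2 fell in WT, and 5 of the 17 had opposite signs. The summed endothelial ratio was 183 to 185 in RagKO silica, against 205 to 231 in RagKO saline, and 301 to 305 in WT silica, against 211 to 219 in WT saline.

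**Figure D5:**
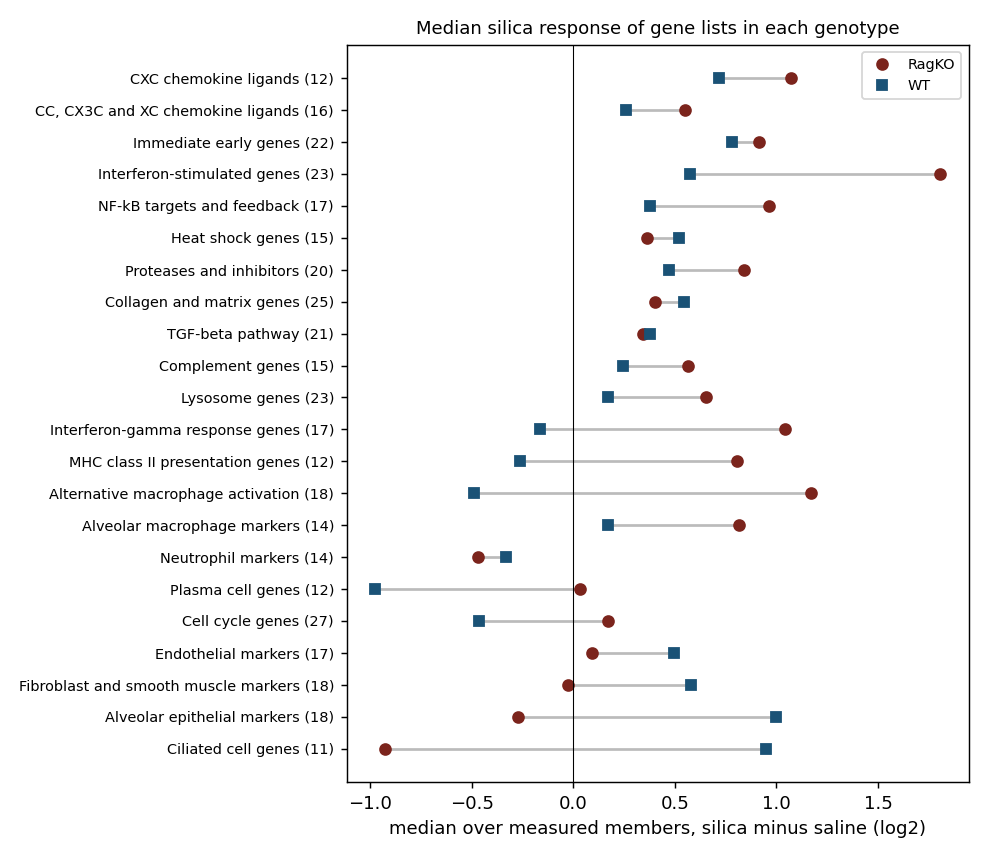
Median silica minus saline difference (log2) over the measured members of 22 gene lists, in RagKO (circles) and WT (squares), with the number measured in brackets. The immediate early list is at 0.91 in RagKO and 0.78 in WT, the interferon-stimulated list is at 1.81 in RagKO and 0.58 in WT, and the epithelial and ciliated lists lie on opposite sides of 0.

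Genes of macrophages that clear particles rose mainly in RagKO. Marco, a scavenger receptor that binds silica, read 6.38 and 6.39 in RagKO silica, against 4.09 and 4.11 in RagKO saline, and 7.07 and 7.08 in WT silica, against 6.57 and 6.56 in WT saline. The RagKO rise of 2.28 was larger than the WT rise of 0.51 (difference 1.77, limma adjusted p = 8.01e-05), and the additive call was lost in 5 of the 8 fits without 1 array (either RagKO silica array, either RagKO saline array or WT saline replicate 2). Among 24 particle-clearance genes 5 rose and none fell, with the genotype difference called larger in RagKO for 11 of the 24, against 11% of all genes. The count of rises was 0 without RagKO silica replicate 1, 1 without RagKO silica replicate 2 or either RagKO saline array, 2 to 4 without WT silica replicate 1 or either WT saline array, and 9 without WT silica replicate 2. Among 23 lysosome genes 6 rose and none fell, with the membrane protein gene Lamp1 at 0.88 and 0.45 and the protease gene Ctsc at 0.63 and 0.81. The lysosome count was 8 without WT silica replicate 2 and 2 or 3 without any 1 of the other arrays, with 2 when either RagKO silica array was left out. Of 5 measured genes of type 2 innate lymphoid cells 2 rose, the transcription factor gene Gata3 by 0.55 and 0.97 and Icos by 0.70 and 0.97, the second in 1 of the 8 fits. Another member, not called in the additive fit, had an own-contrast fall in WT. Icos is also on the list of T cell markers, where it was the only 1 of 10 called. Kit, the stem cell factor receptor of mast cells, rose by 0.57 in RagKO and 0.65 in WT. Of the 7 measured eosinophil, basophil and mast cell markers 2 rose and none fell in the additive fit, while 3 had opposite signs in the genotypes. Their own-contrast calls were 2 rises and 2 falls in RagKO, and 3 rises and no fall in WT.

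Among shared genes past the additive fit, falls were fewer (515 against 684) and had a smaller median difference than rises, and 5 of them were stefin genes. Stfa2l1, an inhibitor of cysteine cathepsins abundant in neutrophils, read 3.81 and 3.98 in RagKO silica, against 5.14 and 5.34 in RagKO saline, and 4.20 and 3.82 in WT silica, against 5.70 and 5.77 in WT saline. It was 2.53-fold lower in RagKO and 3.3-fold lower in WT, with every silica array below every saline array. The gene lies in a run of 12 protein-coding stefin genes, a run picked out after the values were seen, of which 6 were measured and 5 were shared and called lower, against 4.44% of all genes. Csta1 fell by 1.04 and 1.28 in RagKO and WT, Cstdc4 by 0.91 and 1.16, Stfa1 by 1.09 and 1.59, and Stfa2, which kept its call in 4 of the 8 fits without 1 array, by 0.54 and 1.30. Csta2, of the same run, had differences of -0.01 in RagKO and -0.13 in WT.

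These stefins are closely similar in sequence, so a probe may read several of them and their values cannot be taken as independent. Only their promoters were compared here, which lie outside the transcripts that probes read, and probe sequences were not compared. The promoters of Stfa2l1 (chr16:36156561-36156810, plus), Stfa1 (chr16:36276898-36277147, plus) and Stfa2 (chr16:36408364-36408613, minus) show how alike the copies are, with the 21-base stretch that all 3 hold in capitals (RefSeq, GRCm38.p6, strand of the gene, 5′ to 3′).
Stfa2l1: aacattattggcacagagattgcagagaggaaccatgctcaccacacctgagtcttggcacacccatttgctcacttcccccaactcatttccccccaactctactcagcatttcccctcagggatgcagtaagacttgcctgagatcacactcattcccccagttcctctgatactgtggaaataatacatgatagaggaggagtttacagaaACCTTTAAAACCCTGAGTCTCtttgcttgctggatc
Stfa1: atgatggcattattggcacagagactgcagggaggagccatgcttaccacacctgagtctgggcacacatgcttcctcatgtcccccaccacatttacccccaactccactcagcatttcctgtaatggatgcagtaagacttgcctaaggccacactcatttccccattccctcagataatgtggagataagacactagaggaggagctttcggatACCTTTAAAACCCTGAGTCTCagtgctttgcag
Stfa2: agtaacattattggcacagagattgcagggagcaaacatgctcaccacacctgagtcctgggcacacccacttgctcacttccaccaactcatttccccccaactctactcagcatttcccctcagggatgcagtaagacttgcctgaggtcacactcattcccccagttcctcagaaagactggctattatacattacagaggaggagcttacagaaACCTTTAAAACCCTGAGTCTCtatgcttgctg
Over aligned bases the promoters of Stfa2l1 and Stfa2 were 92.3% identical, those of Stfa2l1 and Stfa1 85.1% and those of Stfa1 and Stfa2 82.9%. The shared stretch began at -36 in Stfa2l1, -33 in Stfa1 and -32 in Stfa2.

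Other neutrophil genes fell beside the stefins. S100a8, a subunit of calprotectin, read 6.51 and 6.40 in RagKO silica, against 8.10 and 7.73 in RagKO saline, and 7.19 and 6.71 in WT silica, against 7.85 and 8.12 in WT saline, and was 2.75-fold lower in RagKO and 2.04-fold lower in WT. Its partner S100a9, also without overlap in either genotype, did not pass (differences -0.40 and -0.33, limma adjusted p = 0.081). Retnlg, a resistin-like gene of granulocytes, fell by 0.70 in RagKO and by 1.01 in WT, while Il1r2 and Trem1, both outside the core, passed by a narrow margin (limma adjusted p = 0.0466 and 0.0493). Without 1 array 3 or 4 of the 14 neutrophil markers stayed called lower.

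The remaining leading falls fit no single list. Rmrp, the RNA of the RNase MRP complex, which like 28S RNA carries no poly(A) tail, read 2.51 and 2.31 in RagKO silica, against 3.41 and 3.45 in RagKO saline, and -0.24 and -0.16 in WT silica, against 0.84 and 0.83 in WT saline. It fell by 1.02 in RagKO and by 1.03 in WT, beside the fall of Rn28s1 by 1.53 and by 1.38. Slc19a1, the reduced folate carrier, was 3.09-fold lower in RagKO and 2.26-fold lower in WT. Fchsd1, an actin-regulating gene, fell by 1.35 in RagKO and more in WT, by 2.19 (difference 0.84, limma adjusted p = 0.0298), as did the retinol carrier gene Rbp4 (differences -0.90 and -2.06). Lars2, the mitochondrial leucyl-tRNA synthetase, Ctse, cathepsin E, and Bcat1, a branched-chain aminotransferase, fell by 0.95, 0.93 and 0.84 in RagKO and by 1.04, 0.87 and 0.99 in WT.

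Ms4a1, which encodes the B cell protein CD20, read -2.76 and -2.74 in RagKO silica, against -2.14 and -2.12 in RagKO saline, and 3.67 and 3.55 in WT silica, against 4.51 and 4.64 in WT saline. Both genotypes fell without overlap, by 0.62 and by 0.96, although the RagKO arrays lay below the reference RNA throughout, and whether those spots were above background is not given in the sources used here. Of 5 measured B cell markers 2 fell and none rose, and of 12 plasma cell genes 2 fell, Mzb1 and Pou2af1, which were called in 0 and 1 of the 8 fits without 1 array. The plasma cell list fell in WT only, with 10 falls and no rise in the WT contrast but 1 rise and no fall in the RagKO contrast. Its median difference was -0.98 in WT and 0.03 in RagKO. Of 5 red blood cell genes 1 fell, and the list summed to 73.7 to 81.4 in RagKO silica, against 102 to 103 in RagKO saline, and 168 to 180 in WT silica, against 215 to 227 in WT saline. Of 12 heart muscle genes 3 fell in the additive fit, among them the myosin light chain gene Myl4 (-0.90 in RagKO and -1.40 in WT), and none rose (1 or 2 falls without any 1 array). The genotypes' own contrasts gave 9 falls and no rise of heart muscle genes in RagKO, but 1 fall and 3 rises in WT. Of the 12 genes 5 had opposite signs. Cell cycle genes gave 4 falls and 1 rise among 27, none of them in the core (at most 1 fall and no rise without any 1 array), and 17 of the 27 had opposite signs in the genotypes.

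Several genes known from silicosis were not shared. Arg1, an arginase of alternatively activated macrophages, read 3.75 and 5.01 in RagKO silica, against 1.06 and 1.38 in RagKO saline, and 1.08 and 0.65 in WT silica, against 3.41 and 3.45 in WT saline. It was higher on both RagKO silica arrays and lower on both WT silica arrays (difference 5.72, limma adjusted p = 8.01e-05). The chemokine gene Ccl24 (2.16 in RagKO and -3.49 in WT), the chitinase-like Chil3 (1.18 and -2.20) and the acute-phase gene Saa3 (3.76 and -0.38) also differed in sign, each with a called difference between the genotypes. Il1b had small differences of -0.11 and -0.39 and did not pass (limma adjusted p = 0.111), nor did Nlrp3 (0.39 and -0.07), Fn1 (0.24 and -0.17), Timp1 (1.14 and -0.65) or the scavenger receptor gene Msr1 (1.26 and 0.11). Of 12 MHC class II presentation genes 1 rose and 1 fell, while the difference between the genotypes was called for 10, and of 18 alternative activation genes 3 rose and 1 fell, with 12 such differences.

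Both criteria have edges, and genes near them show how narrow the choice can be. Gsn, a gelsolin gene, passed the additive fit but was not shared, because RagKO silica read 2.89 and 2.33, against 2.43 and 2.10 in RagKO saline, and the arrays overlapped. Itgae, by contrast, was shared, with 2.6 and 1.63 in WT silica, against 1.56 and 1.55 in WT saline, but did not pass (limma adjusted p = 0.0723). Among named shared genes Trem1 lay just inside the threshold (limma adjusted p = 0.0493) and Ccr6 just outside it (0.0582). In 6 of the 47 lists no member was called (chemokine receptor, dendritic cell, club and goblet cell, ciliated cell, ribosomal protein and proteasome genes).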

How the data were processed

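RNA of lung interstitial leukocytes was labelled with Cy5 and hybridised to 8 Agilent 2-colour arrays against a Cy3 universal mouse reference RNA, per the labels, all in the same dye orientation. The values deposited by the authors are log10 ratios per probe (base inferred from the values, with a largest ratio of 737-fold, and direction Cy5 over Cy3 from the labels' dyes). How the authors corrected background, normalized dyes and filtered probes is not given in the sources used here, nor is signal over background.

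Ratios were multiplied by 3.3219 to give log2. Of 16251 probes, 14716 had values on all 8 arrays; by GEO's platform annotation 14488 probes have 1 gene symbol, 10 several and 1753 none. Probes with 1 symbol and 8 values were averaged to 11597 genes, 1478 of them from more than 1 probe. Agreement between probes of 1 gene was not tested. With the probe of the highest mean ratio per gene in place of the average, the additive fit called 1095 genes, in place of 1206. Of the 1199 shared calls, 1033 were kept.

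The additive model (silica and genotype) and the model of 4 group means, from which come each genotype's effect and their difference, were fitted with limma 3.58.1 in R 4.3.3 (lmFit, eBayes, Benjamini-Hochberg adjustment over all genes, threshold 0.05), after a check on simulated data. Named genes are the 15 rises and 15 falls with the largest smaller-of-both-genotypes difference, up to 4 shared members per gene list, a fixed list and probes that check the arrays. The members and lists were chosen with earlier results of these data known, and other list members, the pan-leukocyte genes and the stefin run were named after their values were seen. Lists were only counted. Correlations between same-numbered replicates' deviations ran from -0.07 to 0.11, so the numbers did not pair the arrays. The number of arrays limits the precision. Titanium dioxide exposure was not analysed here.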

Additional observations from a re-analysis of the deposited data

Results flagged for a closer look

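The size of the silica response differed between the genotypes for 33 named shared genes (RagKO effect minus WT effect, limma adjusted p below 0.05, in a test that called 23.3% of all genes). These genes passed the additive fit, which selects against such differences, so their number is not comparable with that share. Groups of 2 arrays cannot be tested for outlying arrays, and what lies behind these differences was not tested.

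Among macrophage, chemokine and cytokine genes the difference was 2.19 for Mmp12, 1.77 for Marco, 1.62 for Il1a, 1.60 for Ccl7, 1.32 for Il4ra, 1.24 for Cxcl5 and -0.86 for Cxcl1. Interferon-related genes differed by 1.23 (Ifit1), 1.04 (Stat2), 1.02 (Oas1a), 0.91 (Oasl2) and 0.88 (Gbp6), each with the larger rise in RagKO.

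Transcription regulators differed by 1.35 (Egr2), 0.86 (Nfil3), -1.09 (Egr1) and -1.25 (Nkx2-1). Matrix and protease genes differed by 1.23 (Col3a1), 0.80 (Plaur) and 0.54 (Timp2). The differences were 2.06 for Car4, 1.40 for Slc26a4, 0.83 for Noxo1, 0.82 for Vegfa and 0.78 for Sgk1.

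Among shared falls a positive difference means a smaller fall in RagKO. It was 1.5 for Mzb1, 1.49 for Igkv4-57-1, whose family shares sequence, 1.16 for Rbp4, 0.84 for Fchsd1, 0.76 for Stfa2, 0.68 for H2-Oa and 0.49 for Myl4. Tspo2 had -0.96 and Sel1l -0.62, and both fell more in RagKO. Of all these genes, Cxcl1, Cxcl5, Egr1, Fchsd1, Ifit1, Myl4, Noxo1, Oasl2, Plaur, Rbp4, Sgk1, Slc26a4, Timp2 and Vegfa kept their additive call whichever array was left out, and each of the others lost it without at least 1 array.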

How the results depend on the processing

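The additive fit called 1206 genes, and 713 after quantile normalization, 1880 with array weights, 541 with a replicate block (all of them among the 1199 shared calls), 3559 as the mean of both genotypes' contrasts in the model of 4 group means, and 287 to 743 without 1 array. The model of 4 group means, unlike the additive fit, does not count a difference between the genotypes' silica effects as spread. The cause of the other shifts was not tested. The replicate block left the WT, RagKO and difference counts at 2244, 3795 and 2669. Without 1 array the WT contrast called 861 to 2389 genes, the RagKO contrast 2380 to 3842 and the difference 1647 to 2485. Without 1 array 3565 to 4001 genes were shared, since fewer arrays must be separated, while 45 were shared at a difference of at least 1 in both genotypes and 539 past the threshold in both own contrasts.

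Of the 1199 shared calls, 282 to 653 kept the call without 1 array. Of 135 named called genes none changed direction, which the sharing rule fixed in advance for shared genes in the fits without 1 array. Additive differences of uncalled genes changed sign with array weights for Arg1 (-1.03), Coro1a (-0.20), Fn1 (-0.041), Laptm5 (-0.10) and Timp1 (-0.14), and after quantile normalization for Coro1a (-0.20). Without 1 array they ran from -0.53 to 0.96 for Arg1, -1.69 to 0.065 for Ccl24, -0.074 to 0.014 for Cd53, -0.14 to 0.14 for Coro1a, -0.15 to 0.012 for Csta2, -0.052 to 0.12 for Fn1 and -0.050 to 0.49 for Timp1.

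With 2 arrays per group the median standard error was 0.11 for the additive difference and 0.18 for the difference between the genotypes, so small differences between the genotypes were not detectable.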
